A study of Rattus norvegicus with 24 samples.

Results

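The solid matter of an oil combustion particle was set apart from what dissolves out of it by comparing the hearts of 4 rats given the whole particle suspension (PM-HD) with the hearts of 4 rats given the saline-leachable fraction of that suspension (PM-L). Each heart was hybridized to 1 Affymetrix Rat 230A array. The 8 arrays were chosen by their titles out of 24 arrays in 6 groups, and all probe sets other than the 57 controls were kept, which left 15866 of 15923. All rats were male Wistar Kyoto rats, 12 to 14 weeks old at the start, that received 1 ml/kg into the trachea once per week, and tissue was taken 48 hr after the last instillation. The PM-HD suspension contained the insoluble particle mass together with soluble zinc (14.5 μg/mg) and a little soluble nickel (3.0 μg/mg). PM-L was made by centrifuging and filtering the PM-HD suspension, so that it held its soluble metals without the solids. The other groups that share the fit received saline, Mount St. Helens ash without soluble metals (MSH), a lower dose of the particle suspension (PM-LD), or zinc sulfate, which by the stated design matched the zinc of PM-HD and PM-L, although the labels and protocol give differing concentrations for it. The PM-HD, MSH, saline and zinc sulfate hearts profiled came from rats instilled for 8 weeks. No source used here states the number of weeks behind the PM-L arrays, so equal duration of the PM-HD and PM-L exposures could not be checked. In the study the longer exposure used a lower weekly dose, so equal weekly zinc could not be checked either. The study asked whether injury to the heart arose from leached zinc or from the solid particles.

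Inhaled particles deposit in the lung, where soluble metals can leach into the pulmonary circulation and reach the heart, whereas solid particles stay largely in the lung and act on other organs through the inflammation they provoke. Zinc entering a cell is bound by metallothioneins, whose genes are switched on by the zinc-sensing transcription factor MTF1, and it is moved across membranes by exporters of the Slc30a family and importers of the Slc39a family. The heart also runs a circadian clock in which BMAL1 and CLOCK activate genes through E-box sequences, while ROR and REV-ERB proteins compete at ROR elements of the Bmal1 promoter.

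Promoters are shown for 3 of the 5 clock and zinc genes that differed between the groups and serve as examples, 1 for each of the 3 motifs. They are from RefSeq on build GRCr8, run 5′ to 3′ on the strand of the gene, and reach from 250 bases before to 50 bases after the start of the gene. Capitals mark an E-box (CACGTG) in the Bhlhe40 promoter at chr4:143174200-143174499, plus strand, a ROR element (TAGGTCA) in the Bmal1 promoter at chr1:176766078-176766377, plus strand, and metal response elements (TGCACNC or TGCGCNC) in a promoter of Slc30a2 at chr5:151843201-151843500, plus strand.
Bhlhe40: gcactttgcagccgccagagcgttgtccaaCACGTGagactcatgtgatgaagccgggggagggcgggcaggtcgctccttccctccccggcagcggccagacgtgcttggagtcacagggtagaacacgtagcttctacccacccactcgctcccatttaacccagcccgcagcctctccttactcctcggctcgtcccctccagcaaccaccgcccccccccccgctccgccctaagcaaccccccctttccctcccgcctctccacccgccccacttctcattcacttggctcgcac
Bmal1: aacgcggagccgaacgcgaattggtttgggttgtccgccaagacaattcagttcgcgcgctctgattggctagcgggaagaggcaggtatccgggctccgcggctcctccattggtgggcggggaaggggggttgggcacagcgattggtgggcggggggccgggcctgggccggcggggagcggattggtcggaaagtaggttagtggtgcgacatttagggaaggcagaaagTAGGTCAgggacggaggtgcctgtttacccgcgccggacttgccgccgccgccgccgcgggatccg
Slc30a2: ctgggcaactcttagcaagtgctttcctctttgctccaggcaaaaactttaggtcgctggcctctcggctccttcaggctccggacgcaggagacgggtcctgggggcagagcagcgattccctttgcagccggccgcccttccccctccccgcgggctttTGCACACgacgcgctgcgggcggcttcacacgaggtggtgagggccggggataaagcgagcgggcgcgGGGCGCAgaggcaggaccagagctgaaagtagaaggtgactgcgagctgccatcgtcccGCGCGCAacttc
Both strands were searched, no match overlapped a match of another motif in these promoters, and the E-box stood in 6.42%, the ROR element in 2.63% and at least 1 metal response element in 24.2% of all 33469 promoters of this length. The E-box of Bhlhe40 began at base -220, the ROR element of Bmal1 at base -16, and the Slc30a2 promoter printed held 3 metal response elements. Another promoter of Slc30a2 held none. The promoter of Mtf1 held 2 metal response elements, and that of Dbp held 4 but no E-box, ROR element or D-box (TTANNTAA, in 5.84% of promoters). A match is a string of letters and was not tested as a binding site.

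The arrays were checked for RNA integrity and for tissue carried along from the atria before the groups were compared. Affymetrix Gapdh controls read both ends of the transcript, and the 3′-to-5′ signal ratio, which rises as RNA breaks down, ran from 1.48 to 4.81 in PM-HD and from 1.11 to 5.62 in PM-L (exact permutation test, p = 0.714). The 12 ventricular cardiomyocyte markers measured were strongly expressed in both groups, with summed signals of 262300 to 327100 in PM-HD and 251200 to 300000 in PM-L. Summed signals of the 5 atrial markers measured were 4720 to 9696 in PM-HD but 5402 to 45010 in PM-L, where rats 2 and 4 stood above the rest (exact permutation test, p = 0.114). Array numbers in the labels of PM-HD and PM-L run group by group, so that array order and exposure cannot be told apart, and 1 saline array is numbered apart from all others.

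By the limits given below, few probe sets told the PM-HD hearts from the PM-L hearts. With limma, 654 probe sets (4.12%) had an unadjusted p under 0.05 and a fold change of more than 25% above 1 or below it (the limits used in the study), and these are called higher or lower below. Of these, 359 were higher (2.26%) and 295 were lower (1.86%) in PM-HD. A p under 0.05 without the fold limit was reached by 713 probe sets (4.49% of those tested). That share is below the one this threshold would give if no probe set differed, so single calls may be false. After Benjamini-Hochberg adjustment 1 probe set (0.0063%) remained below 0.05. With each gene read from its brightest probe set, 214 of 10411 genes were higher (2.06%) and 158 were lower (1.52%), 3.57% together. The share called was 2.06% of the 6010 genes whose mean signal over all arrays exceeded the median of 241.6, and 5.64% of the 4401 dimmer genes. The median called probe set was 1.66-fold higher or at 0.561 of the PM-L level, and 158 called probe sets differed by more than 2-fold. In 326 probe sets (2.05%) the 4 PM-HD rats lay entirely above or entirely below the 4 PM-L rats in signal before normalization.

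**Figure D1:**
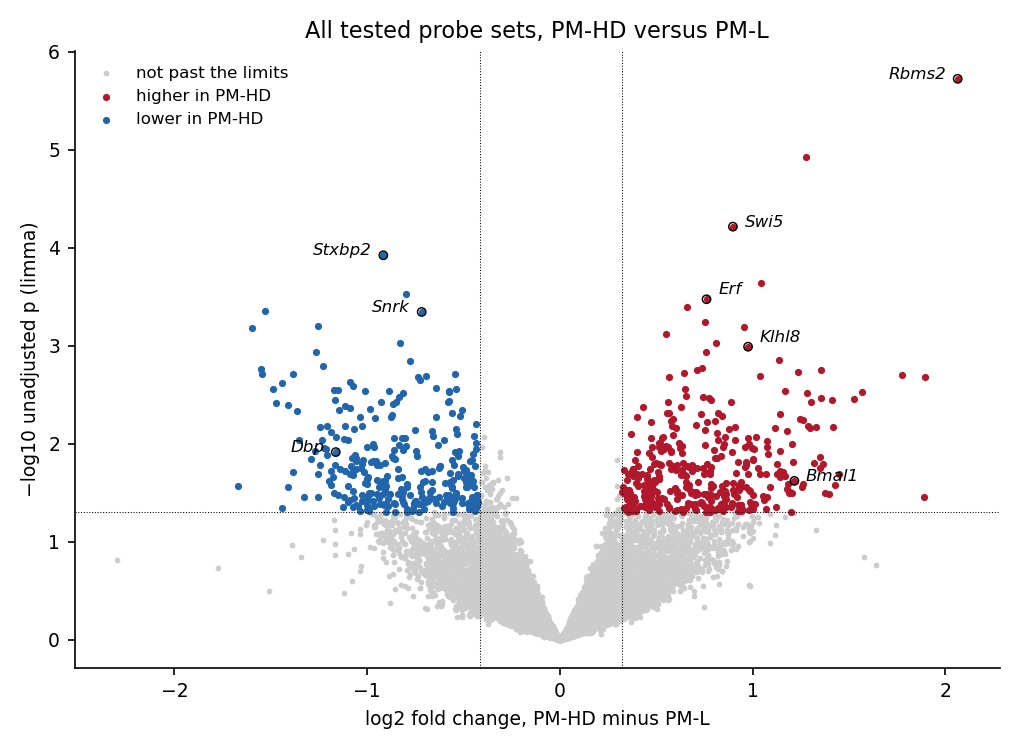
Each point is 1 of 15866 probe sets, placed by its log2 fold change (PM-HD minus PM-L, x axis) and by −log10 of the unadjusted limma p (y axis); dotted lines are the limits for a call, and circled points are genes described in the text. The 359 red and 295 blue points are spread over both directions, and the Rbms2 probe set at 2.06 is the point with the lowest p.

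The probe set that passed the adjusted threshold belongs to Rbms2, which encodes an RNA-binding protein. Its signals were 410, 439, 606 and 329 in the PM-HD rats against 105, 77.4, 124 and 76.5 in the PM-L rats. The groups did not overlap, and the PM-L rats were also below saline, where the mean was 400 (range, 301–480). The log2 difference was 2.06 ± 0.32 (SE), a 4.18-fold higher level in PM-HD (limma, adjusted p = 0.0301). The adjusted p ranged from 0.00927 to 0.426 over the alternative settings and exceeded 0.05 on leaving out PM-HD rat 1, 2 or 3 or PM-L rat 2, 3 or 4, while the log2 difference stayed between 1.67 and 2.24 in those that read this probe set alone. A second, brighter probe set of Rbms2 did not follow, with a log2 difference of 0.27 ± 0.21 (SE) that did not pass the test, so the 2 probe sets of the gene disagree, and their mean gave 1.17.

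Among brightly expressed genes that were called and whose rats did not overlap, 24 were higher and 8 were lower in PM-HD, whereas over all probe sets 136 lay entirely higher and 190 entirely lower. The 10 largest of the former and all 8 of the latter are described here; their adjusted p from limma lay between 0.323 and 1. Overlap was judged on signals before normalization. After normalization the rats of Plagl2 and Zfp703 overlapped (exact permutation test, p = 0.0571 for each). The higher genes belong to varied classes. Swi5, which acts in DNA repair, gave 1101, 971, 860.1 and 882 in PM-HD and 470, 363, 552 and 653 in PM-L. Every PM-HD rat was above every PM-L rat, and the fold was 1.86 (log2 difference, 0.90 ± 0.18 SE). Klhl8, an adaptor of cullin-3 ubiquitin ligases, gave 496, 333, 328 and 369 against 148, 178, 152 and 282, a 1.97-fold difference. A second probe set of Klhl8 was at a log2 difference of 0.14 and did not pass. Aph1a, a subunit of γ-secretase, gave 1028, 865, 924 and 1035 against 658, 563, 487 and 749.7, which is 1.58-fold. Erf, an ETS-domain repressor controlled by ERK, was 1.69-fold higher, and Nktr, a cyclophilin-domain protein, was 1.76-fold higher. The remaining genes were Retreg3, a receptor for autophagy of the endoplasmic reticulum (1.71-fold), Snrpd3, a core protein of the spliceosomal snRNPs (1.64-fold), the ubiquitin ligase Cop1 (1.57-fold), the zinc-finger factor Plagl2 (1.55-fold) and the secretory-pathway protein Dipk2a (1.54-fold).

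Levels in saline are given beside those of both groups as a description. The mean Swi5 signal was 934 in saline, 953 ± 110 (SD, n = 4) in PM-HD and 509 ± 123 (SD, n = 4) in PM-L. Aph1a was at 910.0 in saline, 963 ± 82.7 (SD, n = 4) in PM-HD and 614 ± 114 (SD, n = 4) in PM-L. In the limma comparisons with saline, PM-L passed the same limits in 7 of the 10 genes (4.25% of all probe sets did) and PM-HD in 1 of the 10 (3.22% of all probe sets). The genes were chosen for low PM-L and high PM-HD values on the same arrays, so nothing is read from these counts against the shares over all probe sets. The gene that passed for PM-HD was Nktr, at 420 in saline, 702 ± 103 (SD, n = 4) in PM-HD and 396 ± 88.4 (SD, n = 4) in PM-L. Zinc sulfate, the soluble metal alone, gave mean signals of 690.2 for Swi5 and 229 for Klhl8, which was at 364 in saline. Swi5 and Klhl8 were the only 2 of the 10 genes to pass the same limits for zinc sulfate against saline. The share of all probe sets that did so was not counted, and nothing is read from that number. Cop1, which did not pass, was at 1213 with zinc sulfate and 1207 in saline.

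The lower genes were also of varied classes. Stxbp2, which controls vesicle fusion during exocytosis, gave 204, 228, 277 and 149 in PM-HD and 456, 370.2, 454 and 376 in PM-L. All PM-HD rats were below all PM-L rats, and the log2 difference was -0.92 ± 0.19 (SE), or 0.53 of the PM-L level. Snrk, a kinase related to AMPK, gave 416, 389.8, 352 and 412 against 689, 499, 688 and 717, a log2 difference of -0.72 ± 0.17 (SE). Nap1l5, an imprinted gene of the nucleosome assembly protein family, gave 114, 141, 148 and 204 against 299, 613, 235 and 269.7, a log2 difference of -1.03 ± 0.34 (SE). Acacb makes the malonyl-CoA that restrains mitochondrial fatty acid import and was at 213 ± 52.0 (SD, n = 4) in PM-HD, 337 ± 48.6 (SD, n = 4) in PM-L and 217 in saline. The other genes were the corepressor Zfp703 at 0.578 of the PM-L level, the mitochondrial immunophilin Fkbp8 at 0.714, the vasohibin Vash2 at 0.732 and the nuclear lamina gene Lmna at 0.734. Against saline, PM-HD passed in 3 of these 8 genes (Nap1l5, Zfp703 and Vash2) and PM-L in 3 others (Stxbp2, Snrk and Acacb), counts that likewise reuse the arrays by which the genes were chosen.

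The call held when any single array was left out for all 10 higher genes and for Nap1l5, Stxbp2 and Snrk among the lower ones. The genes were chosen on these same arrays, the higher ones as the 10 largest of 24 and the lower ones as all 8. The directions are therefore not compared. It was lost on leaving out 1 array for Zfp703 (PM-HD 3 or PM-L 1), Acacb (PM-HD 1), Fkbp8 (PM-HD 1 or 2 or PM-L 3), Vash2 (PM-HD 2 or PM-L 4) and Lmna (PM-HD 3 or PM-L 2 or 3). Without the arrays with a Gapdh ratio above 3, Plagl2, Dipk2a and Lmna did not pass, and without the arrays rich in atrial transcripts Acacb (-0.52) and Vash2 (-0.45) did not. Further probe sets of Cop1, Dipk2a, Fkbp8, Lmna and Vash2 did not pass.

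**Figure D2:**
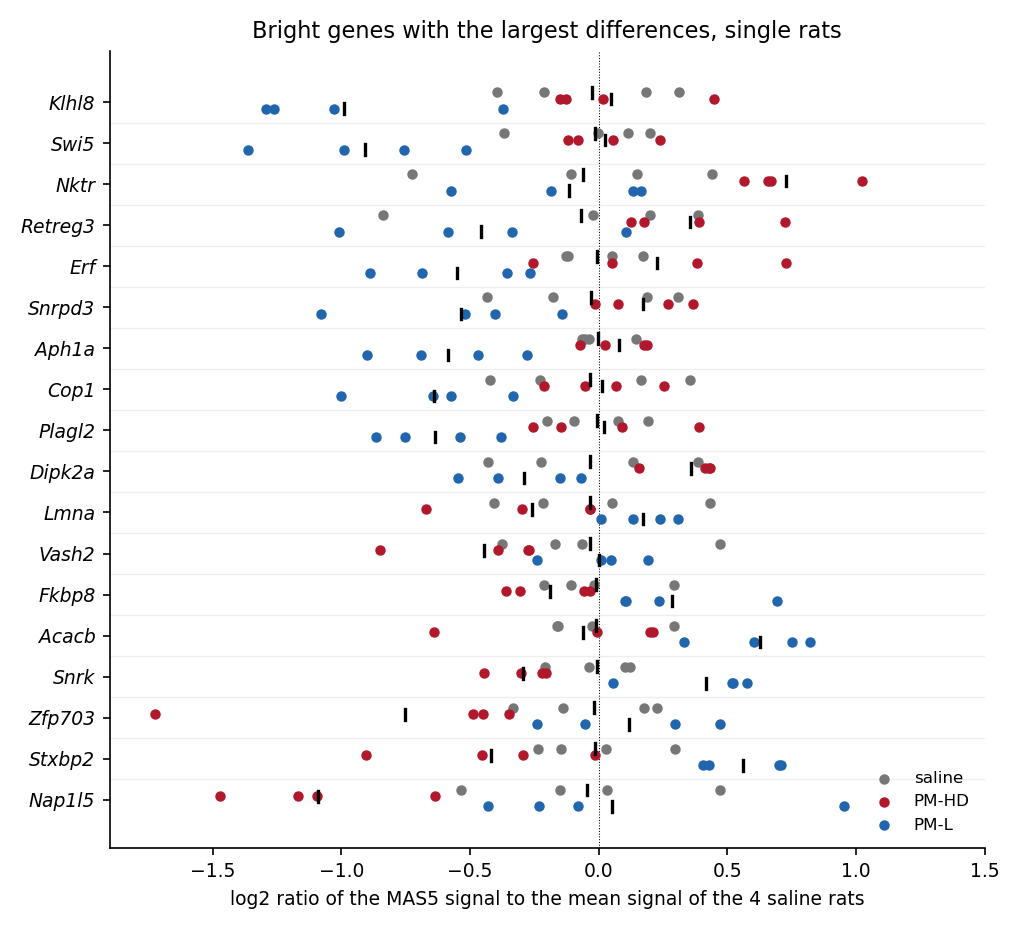
For 18 bright genes, the log2 ratio of each rat's signal to the mean of the 4 saline rats (x axis) is shown for saline, PM-HD and PM-L; points are rats and short bars are group means. For Swi5, Klhl8 and Aph1a the PM-HD points lie around 0 and the PM-L points to the left, whereas for Stxbp2 and Snrk the PM-L points lie to the right.

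Among clock genes, Dbp and Bhlhe40 were lower and Bmal1 was higher in PM-HD than in PM-L. The other 11 of 14 clock genes measured, out of 20 listed, did not pass. Over all 10411 genes 2.06% were called higher and 1.52% lower. The median log2 difference over the 14 was -0.35, beside 0.00 over all genes. All 9 genes that peak with Dbp had a difference below 0, with a median of -0.46, and all 3 that peak with Bmal1 had a difference above 0, with a median of 0.35. Over all genes 5115 of 10411 were below 0. On leaving out some single array the sign turned for Per1 (up to 0.08), Per2 (0.15), the dim Per3 (0.14) and Nfil3 (down to -0.06). The counts are within the same 8 hearts and are not separate tests. Clock transcripts vary with time of day, and no source used here states the hour at which each heart was taken. Hour of collection and exposure therefore cannot be told apart.

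Dbp, a PAR bZIP factor that carries clock timing to its output genes, gave 542, 599.8, 228 and 793 in PM-HD and 1128, 762, 1746 and 895 in PM-L. The highest PM-HD rat slightly exceeded the lowest PM-L rat. Dbp was at 0.447 of the PM-L level, with a log2 difference of -1.16 ± 0.42 (SE). Both groups were above saline, where Dbp was at 175 (range, 124–230.4), by log2 differences of 1.45 in PM-HD and 2.61 in PM-L. In zinc sulfate the mean was 930.0. The call was lost without PM-HD rat 3 (log2 difference, -0.79), without PM-L rat 3 (-0.90), and without the arrays with a Gapdh ratio above 3 (-0.69).

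Bhlhe40, a transcriptional repressor of the clock whose promoter with its E-box is printed above, gave 166, 117, 136 and 278 in PM-HD and 266, 429.5, 277 and 272 in PM-L. PM-HD rat 4 reached the level of the PM-L rats while the other PM-HD rats were below them. The log2 difference was -0.80 ± 0.28 (SE), and it was -0.60 and no longer passed without PM-L rat 2 or without the arrays rich in atrial transcripts. Bmal1, the activator of the loop, gave 279, 239, 406 and 313 in PM-HD against 198, 187, 12.2 and 293 in PM-L. The log2 difference of 1.22 ± 0.50 (SE) rested on PM-L rat 3, since without that array it was 0.37 and did not pass. It also did not pass without PM-HD rat 3, with the 8 arrays fitted alone, or without the arrays with a Gapdh ratio above 3. PM-L rat 3 had the highest Gapdh ratio of both groups, 5.62. With the Gapdh ratio as a covariate Dbp, Bhlhe40 and Bmal1 still passed, at -1.15, -0.73 and 1.31.

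Other clock members did not pass in their brightest probe set. Nr1d1, which encodes the repressor REV-ERBα, was at 793 ± 302 (SD, n = 4) in PM-HD and 1036 ± 83.4 (SD, n = 4) in PM-L, and 344 in saline. Its relative Nr1d2 had a log2 difference of -0.33 in the brightest probe set and of -0.72 in another, which did pass. Hlf, a relative of Dbp, gave 124, 129, 160 and 164 against 177, 175, 194 and 239. The Hlf rats did not overlap, but the fold of 0.77 did not meet the limits for a call. Log2 differences were -0.46 for Tef, -0.61 for Bhlhe41, -0.72 for Per1, -0.10 for Per2, -0.04 for Per3, -0.15 for Cry2, 0.35 for Nfil3 and 0.23 for Clock.

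**Figure D3:**
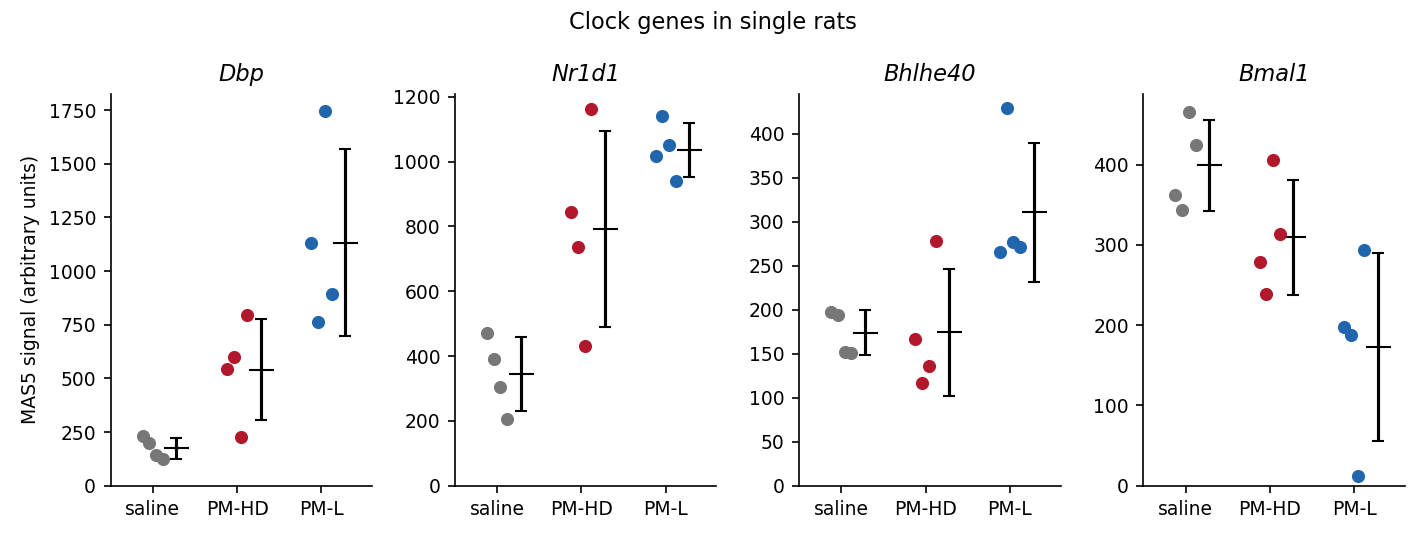
MAS5 signals (y axes, from 0, arbitrary units) of 4 clock genes in the saline, PM-HD and PM-L rats; points are rats and the black bars beside them are mean ± SD (n = 4). Dbp and Nr1d1 are lowest in saline, with PM-L means of 1133 and 1036, and a single PM-L rat at 12.2 lies far below the others for Bmal1.

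Both instillates carried the soluble zinc. Of 18 zinc handling genes measured out of 21 listed, 2 were higher in PM-HD (Mtf1 and Slc30a2), none was lower and 16 did not pass, beside 2.06% of all genes called higher, and the median log2 difference was 0.16. The zinc sensor Mtf1 gave 588, 476, 583 and 599 in PM-HD and 319, 379.7, 416 and 451 in PM-L. The 2 groups did not overlap, and the log2 difference was 0.51 ± 0.18 (SE), 1.43-fold, with saline in between at 492. A dimmer probe set of Mtf1 was at -0.02. Slc30a2, an exporter that loads zinc into vesicles and has a promoter printed above, was a dim gene. Its signals were 277, 147, 285 and 194 against 116, 146, 213 and 156. The groups overlapped, and the call (log2 difference, 0.49 ± 0.21 SE) was lost on leaving out PM-HD rat 1 or 3 or PM-L rat 1 or 4.

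None of the 3 metallothionein genes measured passed the test. The only bright one, Mt2A, gave 819, 529, 536 and 735 in PM-HD and 975, 1047, 825 and 892 in PM-L. Each PM-L rat was above each PM-HD rat in signal, but after normalization the log2 difference was -0.53 ± 0.39 (SE) and an exact permutation test gave p = 0.0571. It passed when the 8 arrays were fitted alone, with the same difference. Mean Mt2A signals were 626 in saline and 1025 in zinc sulfate. Mt1 and Mt3 were dim, with log2 differences of 0.48 ± 0.54 (SE) and 0.47 ± 0.37 (SE). The 7 exporters measured ran from -0.25 for Slc30a1 to 0.49 for Slc30a2, and the 7 importers from 0.00 for Slc39a13 to 0.80 ± 0.43 (SE) for the dim Slc39a4, none of which passed apart from Slc30a2.

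Of 28 inflammatory mediators measured, 1 was higher in PM-HD and none was lower, close to the 3.57% called among all genes. Of the 28, 20 were above 0, among them 10 of 11 cytokines and cytokine receptors, with a median log2 difference of 0.12. Whether the list as a whole shifted was not tested. The gene that passed was Nos2, the inducible nitric oxide synthase, a dim gene at 328, 139, 167 and 49.7 in PM-HD and 34.2, 46.0, 44.8 and 54.5 in PM-L. PM-HD rats 1 to 3 were above all PM-L rats, and saline rats spread from 34.3 to 473. The log2 difference of 1.45 ± 0.58 (SE) no longer passed without PM-HD rat 1, at 1.08. Of 12 acute phase genes, 1 was lower. Serpina3n, a protease inhibitor of the acute phase, was dim at 45.7, 9.3, 54.2 and 32.8 in PM-HD against 91.4, 55.9, 176 and 72.2 in PM-L. The groups did not overlap, the log2 difference was -1.09 ± 0.34 (SE), and the saline mean of 93.8 lay near that of PM-L. None of 22 interferon and MHC genes, 23 antioxidant genes or 10 iron handling genes passed.

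Leukocyte markers differed in sign between lists. Of 11 macrophage markers 10 were below 0, with a median of -0.26, and 1 passed as lower, beside 1.52% of all genes. It was Tyrobp, a signaling adaptor of myeloid cells, at 195 ± 42.9 (SD, n = 4) in PM-HD and 285 ± 82.0 (SD, n = 4) in PM-L, and its difference turned to 0.04 without the arrays with a Gapdh ratio above 3. The Tyrobp call was also lost without PM-HD rat 3 or 4 or PM-L rat 3 or 4. Of 5 neutrophil markers 4 were above 0 and 1 passed as higher, beside 2.06% of all genes. It was the collagenase Mmp8 with 118 to 174 in PM-HD and 46.7 to 120 in PM-L, and its call was lost on leaving out any of 5 arrays (PM-HD 1, 2 or 3 or PM-L 1 or 4). Of 15 lymphocyte markers 1 was higher, the killer cell receptor Klrd1 with 99.1 to 157 and 41.6 to 103. All 3 were dim. The summed signal of the macrophage markers was 4562 to 5842 in PM-HD and 4409 to 7459 in PM-L, that of the neutrophil markers 402 to 638 and 330.1 to 695, and that of the lymphocyte markers 1749 to 1937 and 1691 to 2280, so that the groups overlapped for each. None of 6 mast cell, 4 red cell, 6 adipocyte, 6 lung epithelium, 8 fibroblast, 8 smooth muscle or 6 nerve markers passed.

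In lists of heart muscle, blood vessel and matrix genes, at most 1 member passed, which for 23 matrix genes is near the 3.57% called among all genes. Car4, the membrane carbonic anhydrase of capillary endothelium, gave 2742, 1885, 1222 and 2719 in PM-HD against 605, 706, 1286 and 1024 in PM-L. PM-HD rat 3 lay among the PM-L rats and the others above them. The log2 difference was 1.20 ± 0.43 (SE), a 2.30-fold higher level that held on leaving out any 1 array and in all other settings, and the saline mean was 820 (range, 462–1075). The other 9 endothelial markers measured did not pass, and in bulk tissue a change in cell number and a change in RNA per cell cannot be told apart. Nppa, the atrial natriuretic peptide, gave 2737, 4979, 5545 and 3576 against 9332, 19843, 3726 and 14329, a log2 difference of -1.33 ± 0.59 (SE). It was highest in PM-L rats 2 and 4, which also had the highest Myl7 signals, 12169 and 5511. With the mean of 4 atrial transcripts as a covariate the Nppa difference was -0.73, and without the arrays rich in those transcripts it was -0.58, and it passed in neither. Nppa is itself 1 of the 4 transcripts, so neither value is an independent check. Myl7, Myl4 and Sln, the other atrial transcripts, had log2 differences of -2.30 ± 1.55, -1.77 ± 1.30 and -1.51 ± 1.48 (SE) and did not pass. Lox, which crosslinks collagen, was 1.38-fold higher, the only one of 23 matrix genes to pass. Its call was lost on leaving out any of 4 arrays (PM-HD 3 or 4 or PM-L 2 or 3), and a second Lox probe set, at 0.19, did not pass.

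Among fuel and stress pathways, Acacb was the only 1 of 35 fatty acid genes to pass, with 26 of the 35 below 0 and a median log2 difference of -0.14. None of 33 electron transport and ATP synthase genes, 14 citric acid cycle genes, 31 ion channel and calcium genes, 21 proteasome subunits, 23 ribosomal proteins, 15 glucocorticoid targets or 12 ventricular markers passed. The reticulum chaperone Pdia3 was 1.48-fold higher at 2515 ± 421 (SD, n = 4) against 1734 ± 520 (SD, n = 4), the only one of 19 heat shock and chaperone genes. A second Pdia3 probe set was at -0.33 and did not pass. The Pdia3 call was lost without PM-HD rat 4 or PM-L rat 2 and with the compared groups fitted alone. Cul3, the cullin scaffold of ubiquitin ligases, was 1.28-fold higher, alone among 10 genes of muscle ubiquitin ligation and autophagy. Its call was lost without PM-HD rat 1 or PM-L rat 3, and a second, dim Cul3 probe set, at 0.10, did not pass. The dim AP-1 gene Fosl2, whose rats overlapped, was lower at a log2 difference of -0.99 ± 0.31 (SE), alone among 22 immediate early genes. The vasodilator peptide gene Adm was lower at -0.51, alone among 18 hypoxia-induced genes, and its call was lost without PM-HD rat 1 or 4 or PM-L rat 1 or 3. The dim gene Mki67 was the only one of 17 cell cycle and growth arrest genes to pass. Its rats overlapped, and its call was lost without the arrays with a Gapdh ratio above 3. Nppa, described above, was the only one of 14 genes of the fetal program to pass. Of the 34 lists, 17 had no member called, 15 had 1, and the clock and zinc lists had more, beside 3.57% called among all genes.

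**Figure D4:**
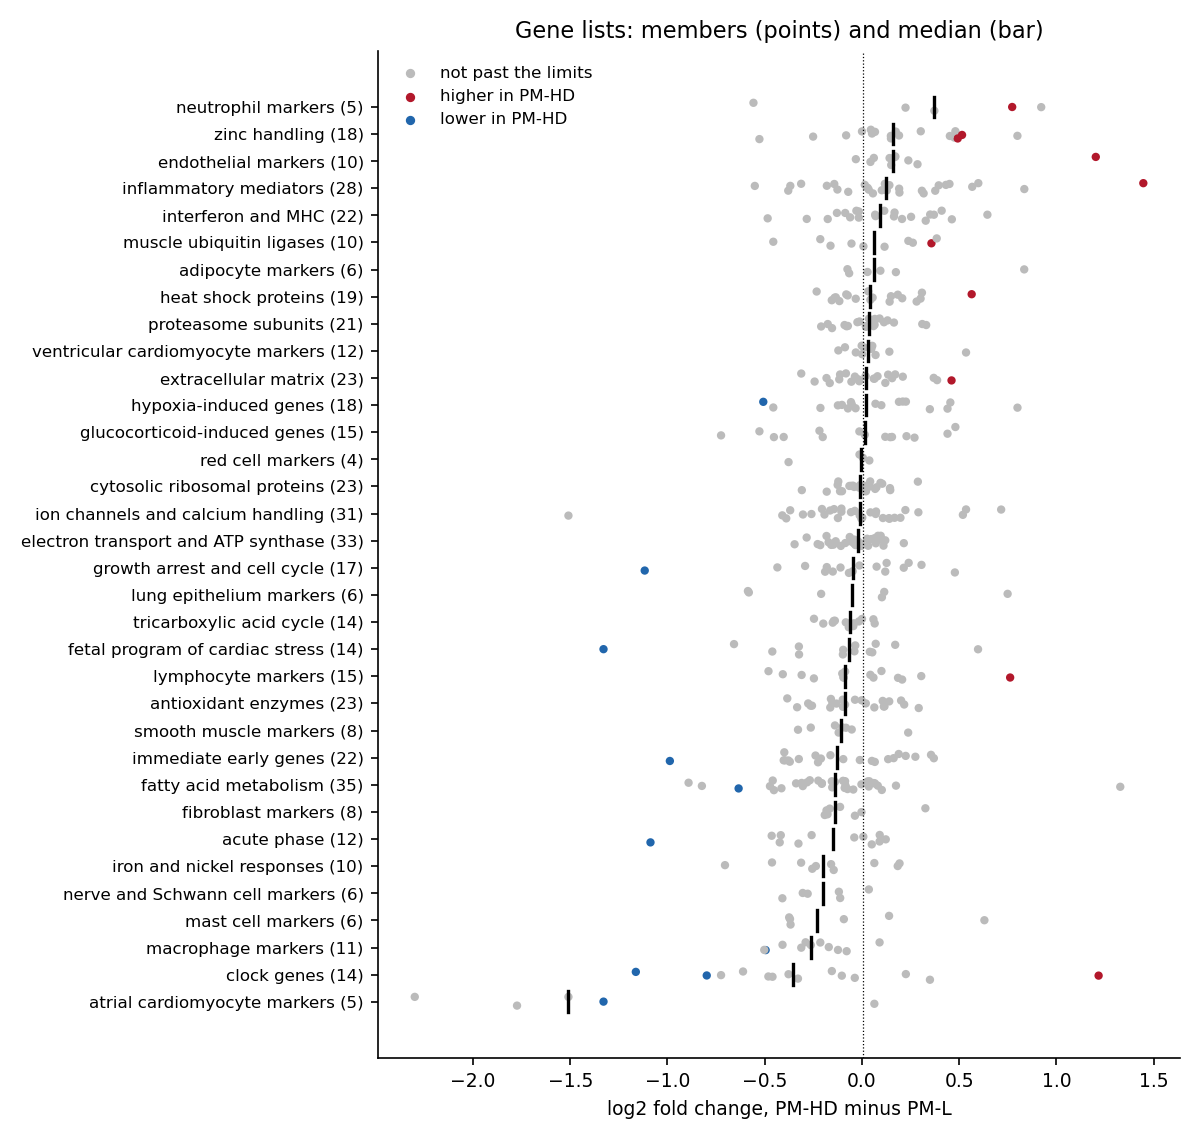
For each of 34 gene lists (y axis, number of measured genes in parentheses) points are the log2 fold changes (PM-HD minus PM-L, x axis) of its members and the black bar is their median; the dotted line is the median of all genes. Called members are colored; most list medians lie within 0.2 of 0, and the atrial list, at -1.51, lies farthest out.

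The comparison of PM-HD with PM-L, which by design differ in the solids, was then set beside MSH against saline. MSH is a solid without soluble zinc, and its comparison shares no array with PM-HD against PM-L. Both comparisons use the same estimate of spread for each probe set, from the fit over all 24 arrays. Their calls are therefore not independent. MSH differed from saline in 504 probe sets (3.18%), 269 higher (1.7%) and 235 lower (1.48%), and with limma none had an adjusted p under 0.05, while 535 (3.37%) had an unadjusted p under 0.05. Both comparisons called 39 probe sets, which is 5.96% of the calls for PM-HD against PM-L, beside 3.18% of all probe sets, and 7.74% of the calls for MSH, beside 4.12%. The direction was the same in 24 and opposite in 15. Across all 15866 probe sets, which are not independent, the log2 differences had a Pearson r of 0.123, and across the 7933 bright ones r was 0.267. The latter was 0.0401 with the atrial transcripts as a covariate, 0.111 without the arrays rich in them, 0.162 with the Gapdh ratio as a covariate, 0.0314 without PM-L rat 2, 0.0492 without PM-HD rat 4 and 0.0883 without saline rat 1.

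Of the shared genes, 6 were bright, and all were higher in PM-HD than in PM-L and higher in MSH than in saline. They are named here because they were called in both, after their values were seen. Rbfox2, a splicing regulator of heart muscle, gave 406, 282, 429 and 556 in PM-HD and 248, 177, 238 and 313 in PM-L. The highest PM-L rat exceeded the lowest PM-HD rat. The log2 difference was 0.75 ± 0.19 (SE) beside 0.39 ± 0.19 (SE) for MSH minus saline, and the first held in every setting tried. Slc41a1, a magnesium transporter, gave 0.47 and 0.49, and Gxylt1, a xylosyltransferase that modifies Notch, gave 0.51 and 0.46. Unc5cl gave 0.61 and 0.70, Hexim1, an inhibitor of P-TEFb, gave 0.35 and 0.41, and the cohesin subunit Stag2 gave 0.32 and 0.36. All of these genes other than Rbfox2 lost their call in PM-HD against PM-L when some single array was left out. Mki67, the proliferation marker, was among those that went opposite ways, with signals of 35.0, 75.4, 52.4 and 27.0 in PM-HD against 121, 68.9, 173 and 151 in PM-L. Its log2 difference was -1.12 ± 0.37 (SE) against 0.95 ± 0.37 (SE) for MSH minus saline.

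**Figure D5:**
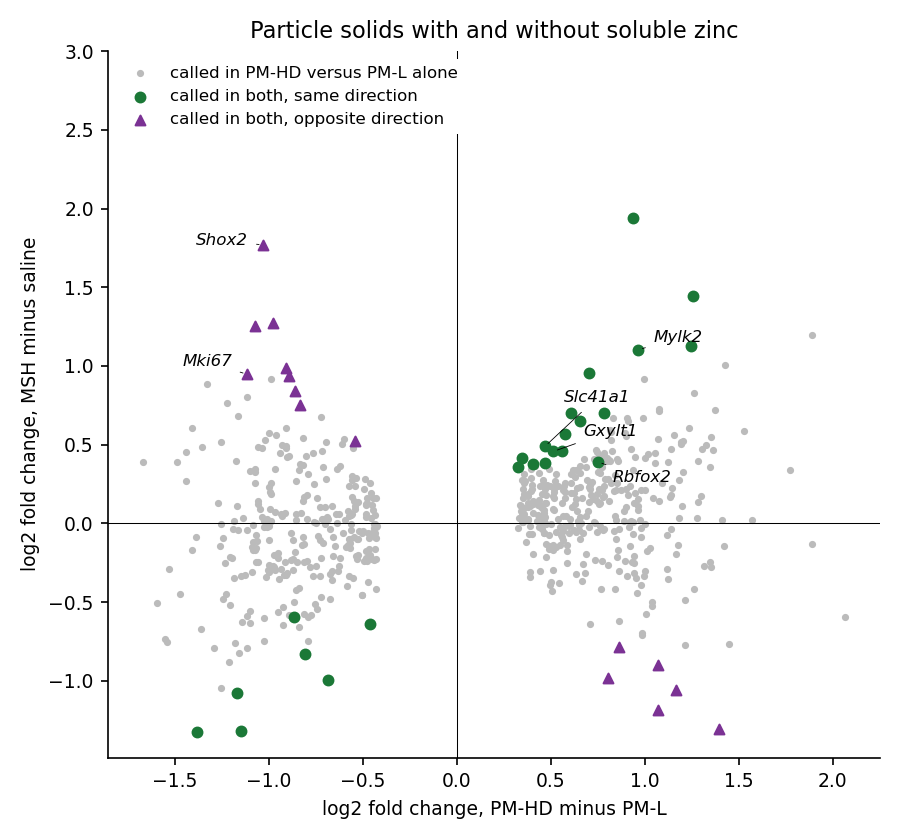
Each point is a probe set called in PM-HD versus PM-L, placed by that log2 fold change (x axis) and by the log2 fold change of MSH minus saline (y axis). Green circles (24) passed in both with the same direction, purple triangles (15) passed in both with opposite directions, and gray points passed in the first comparison alone.

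Whether the difference of PM-HD from PM-L departs from that of MSH from saline was tested directly, by subtracting the latter from the former. At an unadjusted p under 0.05, 457 probe sets (2.88%) differed, and none had an adjusted p under 0.05. PM-HD minus PM-L was the larger value in 209 and the smaller in 248. For the Rbms2 probe set the difference of effects was 2.66 on the log2 scale (limma, adjusted p = 0.112), and for Dbp it was -1.85 and for Mki67 -2.06. These genes had been named for their values in the comparisons that are subtracted here, Mki67 for its opposite directions. The sizes are therefore descriptions and not separate tests.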

How the data were processed

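Heart RNA (left ventricle with septum) was hybridized to Affymetrix Rat 230A arrays. The authors deposited Microarray Suite 5.0 signal intensities, scaled to a common trimmed mean (500 in these files), with 1 value per probe set. They tested RMA values, which were not used here. The MAS5 software is named in the submitters' processing notes. Signals were raised by 16, log2 transformed and quantile normalized over 24 arrays in R 4.3.3, and a linear model with a mean for each of the 6 groups was fitted in limma 3.58.1. Fold changes therefore are on the log2(signal + 16) scale, which understates those of dim genes. Calls used the study's limits, an unadjusted p below 0.05 with a change of more than 25%. Of the probe sets, 12783 carried 1 gene symbol, 312 several and 2771 none; 12748 matched RefSeq, and a gene was read from its brightest probe set. Single values were compared by exact two-sided permutation over 70 arrangements, whose smallest p is 0.0286. The number of arrays limits the precision.

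Named genes were the 10 largest bright, non-overlapping differences per direction (8 qualified among the lower), up to 3 called members per list by lowest p, all clock and zinc genes, the probe set passing the adjusted threshold, and the atrial transcripts. Members, lists and tests were chosen with earlier results of these data known. Alternatives were other pseudocounts (1 and 64), median centering, a filter on dim probe sets, other priors, the compared groups alone, a replicate block, covariates, other fold limits and leaving out arrays. The code was tested on simulated data. Marker and pathway lists numbered 34.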

Additional observations from a re-analysis of the deposited data

Results flagged for a closer look

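Of 90 groups of 4 rats (43 genes and 2 measures of array quality, each in PM-HD and PM-L), 5 held 1 rat far outside the range of the other 3, and about 1 group in 20 is expected to do so by chance. Bmal1 was at 12.2 in PM-L rat 3 against 187 to 293 in the other PM-L rats. Slc41a1 was at 458 in PM-L rat 3 against 687 to 725 in the others. Hexim1 was at 375 in PM-L rat 3 against 516 to 605 in the others, and at 704 in PM-HD rat 1 against 596 to 632 in the other PM-HD rats. Acacb was at 139 in PM-HD rat 1 against 216 to 250.4 in the other PM-HD rats.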

How the results depend on the processing

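The count of 654 probe sets for PM-HD against PM-L ran from 564 to 869 when single arrays were left out (lowest without PM-HD rat 3, highest without PM-HD rat 2), was 219 with dim probe sets removed, and was 1 with the adjusted p. The count for MSH against saline ran from 470 to 587 and was 139 with dim probe sets removed. The count for the difference of both effects ran from 452 to 562, was 146 with dim probe sets removed, and was 724 with the Gapdh ratio as a covariate. No label ties equally numbered rats to each other. Deviations of equally numbered PM-HD and PM-L rats correlated at 0.0677 to 0.438, and 3 of 4 rats correlated best with their own number, a hint from the data and not from the design; rat 2 also had the highest atrial mean in PM-HD (10.4) and PM-L (13.2). With the replicate number as a block the 3 counts were 716, 562 and 515. Tyrobp turned from -0.50 to 0.0427 without arrays with a Gapdh ratio above 3. Of 43 called genes described, 21 kept their call without any 1 array and 15 in every setting tried. The causes of these shifts were not tested. With 4 arrays per group the precision is limited, most of all for dim genes, whose signals lie near the background of the array. The limma p values of the main fit weigh a group difference against the spread of rats within groups, pooled over all 6 groups.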
